A study of Homo sapiens with 9 samples.

Results

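The 10 genes described here encode the cadherins CDH2, CDH4, CDH5, CDH6, CDH11 and CDH13 and the catenins CTNNA1, CTNNB1, CTNND1 and JUP. They were taken by gene symbol from the 62709 genes of the deposited count table, with no threshold on a measured value, from a list drawn up with earlier results of these data known. All 9 libraries came from hTERT-MSCs, human adipose-derived mesenchymal stem cells immortalised with telomerase, which are 1 line and therefore 1 genetic background. The line was starved of serum overnight, settled for 2 h in serum-free medium on uncoated membranes with 3 µm pores, and then given 50 ng/mL of the chemoattractant PDGF-BB for 1 h. The 3 groups of 3 libraries each were pseudopodia, scraped from the underside of the membrane; cell bodies, scraped from the upper side; and whole cells, for which the labels repeat the same protocol without a harvest step of their own. The labels give this treatment for every library, so no unstimulated library was compared. The labels do not say whether replicates came from separate cultures, and the p-values therefore measure only the spread between libraries, which may be technical.

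Cadherins are calcium-dependent adhesion receptors that bind cadherins on a neighbouring cell through their extracellular repeats. In classical cadherins the cytoplasmic tail holds p120-catenin (CTNND1) near the membrane and β-catenin (CTNNB1) or its relative plakoglobin (JUP) further along, and these pass the connection through α-catenin (CTNNA1) to actin. β-Catenin is also the co-activator of canonical Wnt signalling, and its cytosolic pool is kept low by a destruction complex built on AXIN and APC. Mesenchymal stem cells are known for N-cadherin (CDH2) and cadherin-11 (CDH11) in place of the epithelial E-cadherin. The set is named for classical cadherins, but CDH13 (T-cadherin) is anchored in the membrane by a lipid and has no catenin-binding tail, and CDH5 (VE-cadherin) is best known from endothelium.

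Library totals ran from 55469030 to 83894938 counts. The spread between replicates was largest in pseudopodia, with a typical coefficient of biological variation of 31.9%, against 17.6% in cell bodies and 5.09% in whole cells. With cell bodies as the comparison, pseudopodia held more of the protrusion mRNAs RAB13, KIF1C and NET1, with log2 fold changes of 4.47, 4.82 and 3.84, and less of the endoplasmic reticulum chaperone mRNAs HSPA5 and PDIA3, at -2.44 and -2.004. All 8 mesenchymal stem cell markers examined were expressed, with a summed level of 6806 to 8250 TPM (reads per unit of transcript length, scaled to the same total in every library) in pseudopodia, 14050 to 16710 TPM in cell bodies and 15760 to 16500 TPM in whole cells. All 8 were also lower in pseudopodia than in cell bodies, and the part of that shift in the cadherin values was not tested. For these marker counts, the shares of all genes tested in the same comparison were 19.9% called lower and 18.6% called higher. Of the epithelial markers 4 of 7 passed the filter and none of the 4 was called in pseudopodia against cell bodies. EPCAM had 3, 2 and 4 counts in all in pseudopodia, cell bodies and whole cells. Other epithelial markers were clearly expressed, with KRT18 at means of 164, 194 and 86.7 TPM and KRT8 at 77.15, 74.9 and 64.2 TPM in that order. Of the haematopoietic markers, CD14 was lower in pseudopodia and the other 2 tested, PTPRC and CD34, were not called. CD34 was expressed, at means of 25.6, 29.7 and 33.0 TPM in the same order. In bulk libraries, fewer cells of a type and less RNA per cell cannot be told apart, and each level is relative to the rest of its own library.

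All 10 genes passed the filter on low counts, and 19426 genes were tested. In pseudopodia against cell bodies, 8 of the 10 genes were lower and 0 were higher at an adjusted p below 0.05 in edgeR's quasi-likelihood test with Benjamini-Hochberg adjustment. The count of higher genes was also 0 at an unadjusted p below 0.05, in DESeq2 and in limma. The share of all genes called in this comparison was 38.5%, with 19.9% called lower and 18.6% called higher. All 6 cadherin mRNAs were lower, with a median log2 fold change of -1.91, against a median of -0.05 over all genes tested. Of the 4 catenins, CTNNA1 and CTNND1 were lower by small amounts, CTNNB1 and JUP did not pass the test, and the median was -0.16. The call was kept under all 16 alternative settings for CDH2, CDH5, CDH11 and CDH13, whereas the calls of CDH4, CDH6, CTNNA1 and CTNND1 were each lost under some. The libraries of the 2 groups did not overlap for these 8 genes, and for JUP every pseudopodia library was the higher. Over all genes, every pseudopodia library lay below every cell body library for 24.5% and above for 22.6%. Without the third cell body library 4 genes were called lower, and without the first pseudopodia library or the second cell body library 5 were. The main fit shares its spread per gene among all 9 libraries, so the whole cell libraries also entered these p-values. Whole cells had the smallest spread, at 5.09%, against 31.9% in pseudopodia and 17.6% in cell bodies. In an edgeR fit of only the 6 libraries compared, 5 genes were called lower. CDH4, CTNNA1 and CTNND1 were not called there, with adjusted p of 0.0657, 0.0736 and 0.0781. The part of the whole cell spread in this loss was not tested.

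**Figure D1:**
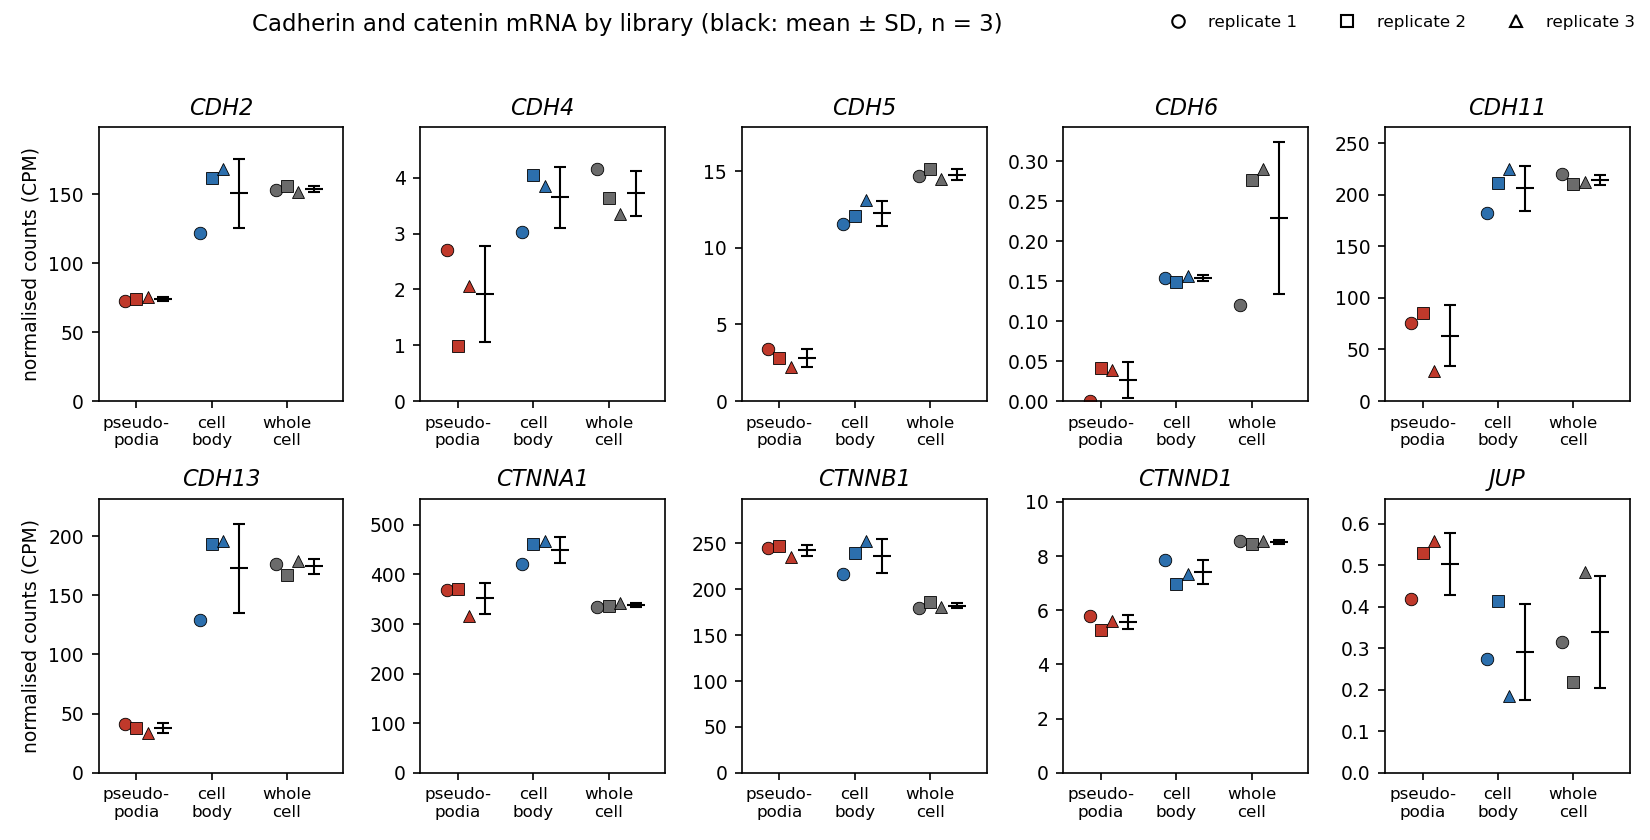
Normalised counts (CPM) of each gene in each of the 9 libraries, on a linear axis that starts at 0 and has its own scale in each panel; symbols mark the replicate, and the black bar gives the mean ± SD of 3 libraries. The pseudopodia values of all 6 cadherins lie below every cell body value, whereas those of CTNNB1 overlap the cell body values between 216.6 and 253.1 CPM.

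CDH2 encodes N-cadherin, the main classical cadherin of mesenchymal cells, at chr18:27950966-28177446 on the minus strand (GRCh38, GENCODE 29). Its level in CPM, counts scaled to library size with TMM factors, was 72.7, 74.2 and 75.1 in pseudopodia, 122, 161 and 168 in cell bodies, and 153, 156 and 152 in whole cells. The pseudopodia libraries lay close together and below every other library, and the first cell body library was the lowest of its group. CDH2 was 2.03-fold lower in pseudopodia than in cell bodies, with a log2 fold change of -1.02 ± 0.13 (SE) and an edgeR adjusted p of 0.00013. Leaving out any 1 library gave log2 fold changes between -1.16 and -0.92.

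CDH11 encodes cadherin-11, also called OB-cadherin, a type II cadherin of mesenchyme and bone-forming cells (chr16:64943753-65126112, minus strand). Its pseudopodia libraries held 75.8, 85.2 and 29.4 CPM, against 182, 211 and 225 CPM in cell bodies and 220, 210 and 212 CPM in whole cells. The third pseudopodia library stood well below the other two, yet even the highest pseudopodia value was under every cell body and whole cell value. The log2 fold change against cell bodies was -1.70 ± 0.33 (SE), with an edgeR adjusted p of 0.00301. Without the third pseudopodia library it was -1.34, which was the smallest size over the libraries left out in turn.

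CDH13 encodes T-cadherin, a receptor for adiponectin and low-density lipoprotein that lacks a cytoplasmic tail (chr16:82626803-83800640, plus strand). It held 41.6, 38.2 and 33.4 CPM in pseudopodia, 130, 193 and 196 CPM in cell bodies, and 176, 168 and 179 CPM in whole cells. Every pseudopodia library lay far below every library of the other groups, and the first cell body library was again the lowest of its group. The log2 fold change against cell bodies was -2.20 ± 0.17 (SE), a 4.59-fold lower level, with an edgeR adjusted p of 3.03e-06. Its 95% interval, -2.57 to -1.82, did not meet that of CDH2, -1.32 to -0.73, although the difference between these genes was not itself tested.

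CDH5 encodes VE-cadherin, the adhesion receptor of endothelial adherens junctions (chr16:66366622-66404786, plus strand). Its level was 3.39, 2.81 and 2.20 CPM in pseudopodia, 11.6, 12.0 and 13.1 CPM in cell bodies, and 14.7, 15.1 and 14.5 CPM in whole cells. The 3 groups did not overlap. CDH5 was 4.36-fold lower in pseudopodia than in cell bodies, with a log2 fold change of -2.12 ± 0.18 (SE) and an edgeR adjusted p of 4.34e-06.

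Because CDH5 is an endothelial marker, 12 other endothelial markers were examined beside it. Of the 9 that passed the filter, VWF was higher in pseudopodia than in cell bodies (log2 fold change 1.403), TIE1, TEK and ROBO4 were lower (-2.23, -0.59 and -0.53), and PECAM1, FLT1, EMCN, ESAM and EGFL7 did not pass the test. Over all genes tested, 18.6% were called higher and 19.9% lower in this comparison. The ROBO4 call was lost without any 1 of 5 of the 6 libraries compared, the TEK call without the first pseudopodia library or the second or the third cell body library. KDR, the main VEGF receptor of endothelium, had 7 counts in pseudopodia and 0 in both cell bodies and whole cells, and CLDN5, the endothelial tight junction claudin, had 1, 0 and 0. The summed level of the 12 was 39.1 to 50.4 TPM in pseudopodia, 55.9 to 80.1 TPM in cell bodies and 60.4 to 65.0 TPM in whole cells. TEK, a receptor for angiopoietins, made up most of that sum, with means of 32.7, 59.7 and 54.7 TPM in pseudopodia, cell bodies and whole cells.

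CDH4 and CDH6 were the least abundant cadherins. CDH4 encodes R-cadherin, a close relative of CDH2 (chr20:61252426-61940617, plus strand), and held 2.70, 0.992 and 2.06 CPM in pseudopodia, 3.03, 4.05 and 3.86 CPM in cell bodies, and 4.16, 3.65 and 3.36 CPM in whole cells. The highest pseudopodia library came close to the lowest cell body library without passing it. The log2 fold change was -0.93 ± 0.30 (SE) with an edgeR adjusted p of 0.0308, and the call was lost without the third pseudopodia library (adjusted p = 0.0521), the second cell body library (0.0912) or the third cell body library (0.0868).

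CDH6 encodes K-cadherin, a type II cadherin first described in kidney (chr5:31193750-31329146, plus strand). It was close to the limit of detection, with 0, 3 and 2 raw counts in pseudopodia, 9, 9 and 11 in cell bodies, and 11, 19 and 18 in whole cells. With depth taken into account, the summed counts gave a pseudopodia to cell body ratio of 0.167, with an exact 95% interval of 0.0506 to 0.437 that covers counting error only. The fitted log2 fold change of -2.49 (edgeR adjusted p = 0.0219) was -1.90 without the first pseudopodia library, where the adjusted p was 0.0564, and the call was also lost without the third cell body library (0.0511).

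CTNNA1 encodes αE-catenin, the actin-binding link of the complex, and was the most abundant of the 10 genes per unit length (chr5:138610967-138935034, plus strand). It held 369, 371 and 316 CPM in pseudopodia, 420, 462 and 468 CPM in cell bodies, and 334, 336 and 342 CPM in whole cells. The cell body libraries were the highest and overlapped neither other group, while pseudopodia and whole cells overlapped. CTNNA1 was 1.28-fold lower in pseudopodia than in cell bodies, with a log2 fold change of -0.36 ± 0.11 (SE) and an edgeR adjusted p of 0.0294. That call was lost without the first pseudopodia library (adjusted p = 0.0527) and without the second or the third cell body library (0.0860 and 0.112).

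CTNNB1 encodes β-catenin (chr3:41194741-41260096, plus strand). Its level was 245, 247 and 235 CPM in pseudopodia, 217, 239 and 253 CPM in cell bodies, and 180, 186 and 181 CPM in whole cells. Pseudopodia and cell bodies overlapped, and both lay above every whole cell library. The log2 fold change between pseudopodia and cell bodies was 0.04 ± 0.11 (SE), with an edgeR adjusted p of 0.814 and a 95% interval of -0.20 to 0.28. On log2(TPM + 1) the value was -0.24 with an adjusted p of 0.0595 in limma, on a scale where the median of all genes was -0.17.

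CTNND1 encodes p120-catenin, which controls how long cadherins stay at the surface (chr11:57753243-57819546, plus strand). Its count is uncertain. The deposited table lists the read-through gene TMX2-CTNND1 separately, RefSeq (GRCh38.p14) places 99.4% of the span of CTNND1 inside it, and how reads that fall in both were assigned is not given in the sources used here. Over the 9 libraries together the read-through gene had 1 count and CTNND1 had 4370. As listed, CTNND1 held 5.79, 5.29 and 5.61 CPM in pseudopodia, 7.86, 6.98 and 7.34 CPM in cell bodies, and 8.55, 8.43 and 8.57 CPM in whole cells, 3 groups without overlap. The log2 fold change against cell bodies was -0.41 ± 0.14 (SE) with an edgeR adjusted p of 0.0337, and it was called in 7 of 16 alternative settings. Leaving out either of the first 2 pseudopodia libraries or any cell body library ended the call, with adjusted p between 0.0546 and 0.101.

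JUP encodes plakoglobin, the catenin shared by adherens junctions and desmosomes (chr17:41754604-41786931, minus strand). It had 29, 39 and 29 raw counts in pseudopodia, 16, 25 and 13 in cell bodies, and 29, 15 and 30 in whole cells. On the CPM scale the pseudopodia libraries, at 0.419 to 0.559 CPM, lay just above the cell body libraries, at 0.185 to 0.415 CPM, and overlapped the whole cell libraries, at 0.219 to 0.484 CPM. The log2 fold change against cell bodies was 0.79 ± 0.39 (SE), and the difference did not pass the test (edgeR adjusted p = 0.138). The 95% interval was -0.08 to 1.66. With depth taken into account, the summed counts, 97 against 54, gave a pseudopodia to cell body ratio of 1.74. Its exact 95% interval of 1.24 to 2.48 covers counting error only.

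**Figure D2:**
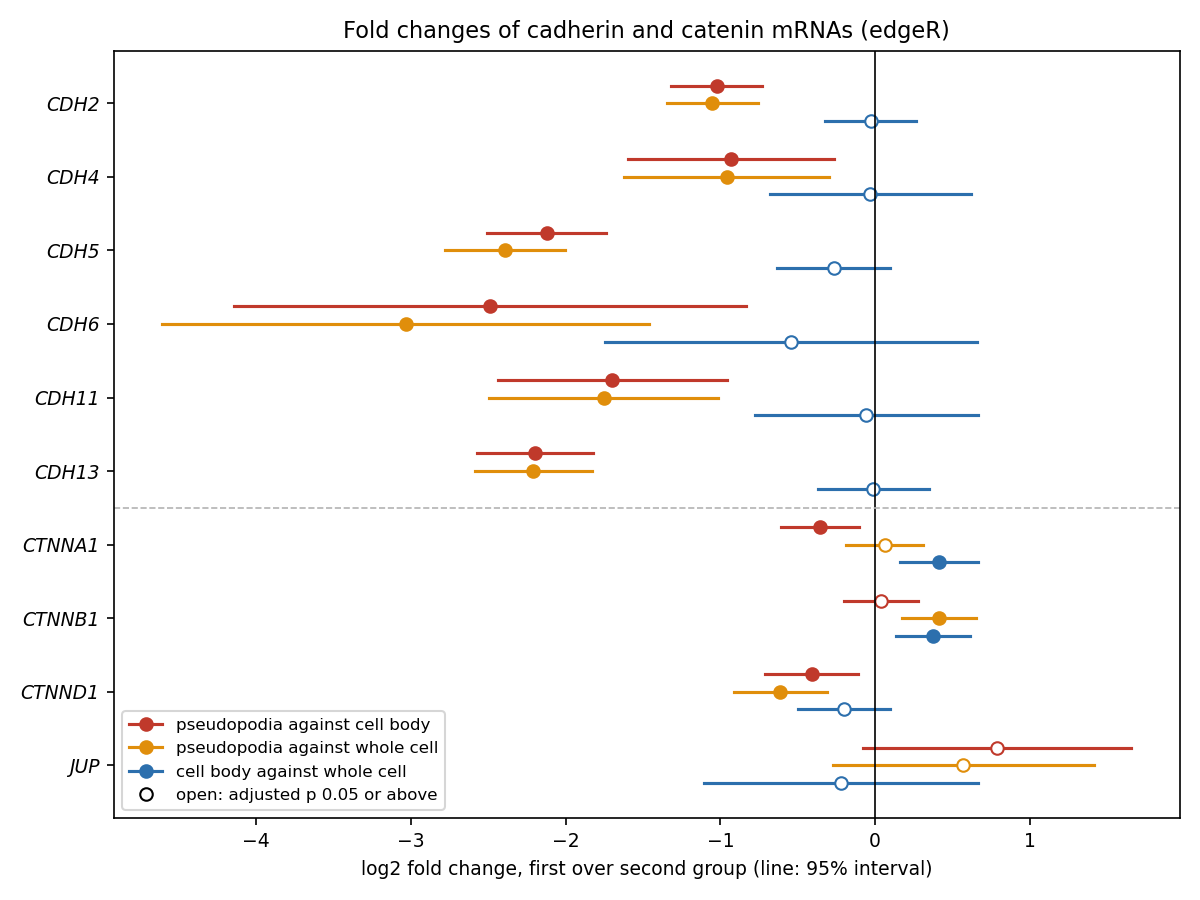
Log2 fold changes of the 10 genes in the 3 comparisons, first-named group over second, from edgeR; lines are 95% intervals, filled points have an adjusted p below 0.05, and the dashed line parts cadherins from catenins. The red and orange points of the cadherins run from -3.04 to -0.93, the blue points of the same genes stay between -0.54 and -0.01, and CTNNB1 lies above 0 in both comparisons with whole cells.

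In pseudopodia against whole cells, 7 of the 10 genes were lower and 1 was higher in edgeR's quasi-likelihood test with Benjamini-Hochberg adjustment. The share of all genes called was 61%, with 33.1% called lower and 27.9% called higher, so a call was more common here than in the first comparison. Every pseudopodia library lay below every whole cell library for the 7 lower genes, as for 38.9% of all genes, and above for CTNNB1, as for 31.1%. The pseudopodia libraries are the same in both comparisons, and the values are therefore given side by side rather than as a second observation. All 6 cadherins were again lower, with a median log2 fold change of -1.98, against -0.12 over all genes tested. CDH2 was at -1.05 (adjusted p = 5.7e-05), CDH11 at -1.75 (0.0014), CDH13 at -2.21 (1.64e-06), CDH5 at -2.39 (1.2e-06) and CDH4 at -0.96 (0.0169). CDH6, with 5 counts against 48, was at -3.04 (0.00349), and at -2.44 without the first pseudopodia library. The CDH4 call was lost without the first whole cell library (0.0589).

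Among the catenins, CTNNB1 was the gene higher in pseudopodia than in whole cells, by 0.41 ± 0.11 (SE) on the log2 scale with an edgeR adjusted p of 0.00683. That direction held under every scaling of the counts, but on log2(TPM + 1) the value was -0.05 with an adjusted p of 0.656. CTNND1 was lower, at -0.61 ± 0.14 (SE), with an adjusted p of 0.00242 that kept its side of the threshold in 16 of 16 alternative settings. CTNNA1, at 0.06, and JUP, at 0.57, did not pass the test (adjusted p = 0.663 and 0.217). CTNNA1 turned to -0.40 on log2(TPM + 1), where it was called lower by limma with an adjusted p of 0.00722. By contrast, limma-voom with sample weights called it higher, at 0.124 with an adjusted p of 0.0302. Those weights rested mainly on the first pseudopodia library. On log2(TPM + 1) the median of all genes in this comparison was -0.34, against -0.12 for the scaled counts. CTNNA1 was below the median of all genes on log2(TPM + 1) but above it on log2(TPM + 0.1), where it was at -0.404 and the median at -0.556.

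Cell bodies were also set against whole cells. In this comparison 0 of the 10 genes were lower and 2 were higher in edgeR's quasi-likelihood test, with 38.6% of all genes called, 20.5% lower and 18.1% higher. At an unadjusted p below 0.05, and in DESeq2, the count of lower genes was also 0, while limma-voom with sample weights called CDH5 and CTNND1 lower. Every cell body library lay above every whole cell library for CTNNA1 and CTNNB1, as for 30% of all genes, and below for CDH5 and CTNND1, as for 34.9%. The 6 cadherins had a median log2 fold change of -0.04, and the values of CDH2, CDH4, CDH11 and CDH13 were between -0.06 and -0.01. Their 95% intervals were narrowest for CDH2 (-0.32 to 0.27) and CDH13 (-0.37 to 0.35) and wider for CDH11 (-0.78 to 0.66) and CDH4 (-0.68 to 0.62). Differences within those intervals could not be resolved in this fit. Its spread per gene is shared by all 9 libraries, so the pseudopodia libraries also set the width of these intervals. For CDH11 the SD was 47.0% of the mean in pseudopodia, 10.6% in cell bodies and 2.48% in whole cells. CDH5 was at -0.27 with all cell body libraries below all whole cell libraries, and did not pass the test (edgeR adjusted p = 0.222). In an edgeR fit of only the 6 libraries compared, CDH5 was called lower, at -0.246 with an adjusted p of 0.0332. CDH6 was at -0.54 with 29 counts against 48 (adjusted p = 0.458).

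The 2 catenins that were higher in cell bodies than in whole cells were CTNNA1, by 0.42 ± 0.11 (SE), and CTNNB1, by 0.37 ± 0.11 (SE), on the log2 scale. Their edgeR adjusted p values were 0.0149 and 0.0192, and both calls were lost when any 1 whole cell library was left out, with adjusted p of 0.0552 to 0.0634 for CTNNA1 and 0.0596 to 0.0800 for CTNNB1. The CTNNB1 call was also lost without the second or the third cell body library (0.0570 and 0.0729). CTNND1, at -0.20, and JUP, at -0.22, did not pass the test. CTNNB1 was thus above whole cells in both fractions on the CPM scale, which is relative to each library's own total.

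Levels of different genes were compared per unit length, in TPM. Because the count of CTNND1 is uncertain, so are its place in the orders below and its part in the catenin sums. In pseudopodia the order was CTNNA1 at 136 ± 17.2 TPM, CTNNB1 at 70.0 ± 4.69, CDH2 at 29.3 ± 1.11, CDH11 at 16.4 ± 8.16 and CDH13 at 11.6 ± 1.59 TPM (SD, n = 3 each). CDH11 and CDH13 overlapped, at 7.20 to 22.7 and 9.84 to 12.9 TPM. CDH5, CTNND1 and CDH4 followed at 1.57, 1.24 and 0.861 TPM with overlapping ranges, and then JUP at 0.345 and CDH6 at 0.00721 TPM.

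In cell bodies CTNNA1 led with 211 ± 13.5 TPM. CTNNB1 at 83.2 ± 7.26, CDH2 at 72.5 ± 12.5, CDH13 at 64.9 ± 14.4 and CDH11 at 64.3 ± 7.36 TPM came next and overlapped from each to its neighbour. Below them were CDH5 at 8.33, CTNND1 and CDH4 at 2.01 TPM each, JUP at 0.243 and CDH6 at 0.0510 TPM.

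In whole cells the order below CTNNA1, at 179 ± 3.28 TPM, changed: CDH2 at 83.5 ± 1.88 TPM lay above CDH11 at 75.5 ± 3.67, CDH13 at 74.0 ± 3.59 and CTNNB1 at 72.4 ± 1.15 TPM, and these last 3 overlapped. CDH5 stood at 11.3, CTNND1 at 2.62, CDH4 at 2.32, JUP at 0.321 and CDH6 at 0.0855 TPM. CTNNB1 thus ranked 2 of the 10 genes in pseudopodia and in cell bodies, and ranked 5 in whole cells.

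The balance of catenin to cadherin mRNA differed between the groups. The 6 cadherins summed to 64.3, 67.5 and 47.5 TPM in pseudopodia, 173, 223 and 240 TPM in cell bodies, and 256, 240 and 244 TPM in whole cells. The 4 catenins summed to 215, 224 and 183 TPM in pseudopodia, 275, 298 and 316 TPM in cell bodies, and 258, 251 and 253 TPM in whole cells. Per library, the ratio of catenins to cadherins was 3.35, 3.32 and 3.84 in pseudopodia, 1.59, 1.34 and 1.32 in cell bodies, and 1.01, 1.04 and 1.04 in whole cells. The 3 groups did not overlap, and no test was made because the sum was formed over genes chosen with their values known. A ratio within a library is untouched by the scaling between libraries. Within the catenin sum, CTNNA1 made up 65.3 ± 1.54% in pseudopodia, 71.2 ± 0.483% in cell bodies and 70.3 ± 0.394% in whole cells, and CTNNB1 33.9 ± 1.47%, 28.0 ± 0.547% and 28.5 ± 0.449% in the same order (SD, n = 3 each).

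CDH2 made up a larger part of the cadherin sum in pseudopodia, with 44.9%, 45.2% and 59.8%, against 33.8%, 34.3% and 34.4% in cell bodies and 33.3%, 34.8% and 33.5% in whole cells. The part of CDH13 was smaller, at 20.0%, 18.1% and 20.7% in pseudopodia, 28.0%, 32.0% and 31.2% in cell bodies, and 30.0%, 29.1% and 30.8% in whole cells. CDH11 held 30.3%, 33.6% and 15.1% in pseudopodia, where the third library is the one low in CDH11, against 29.04% to 32.7% in cell bodies and 30.3% to 31.1% in whole cells. These shares hold per unit length only. In CPM, pseudopodia libraries 1 and 2 held more CDH11 than CDH2, at 75.8 and 85.2 against 72.7 and 74.2. The third held less, at 29.4 against 75.1. In cell bodies the mean CPM was 206 for CDH11 and 151 for CDH2. The ratio of CTNNB1 to CDH2, a partner pair of the N-cadherin complex, was 2.46, 2.43 and 2.29 in pseudopodia, 1.30, 1.08 and 1.10 in cell bodies, and 0.859, 0.871 and 0.872 in whole cells.

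**Figure D3:**
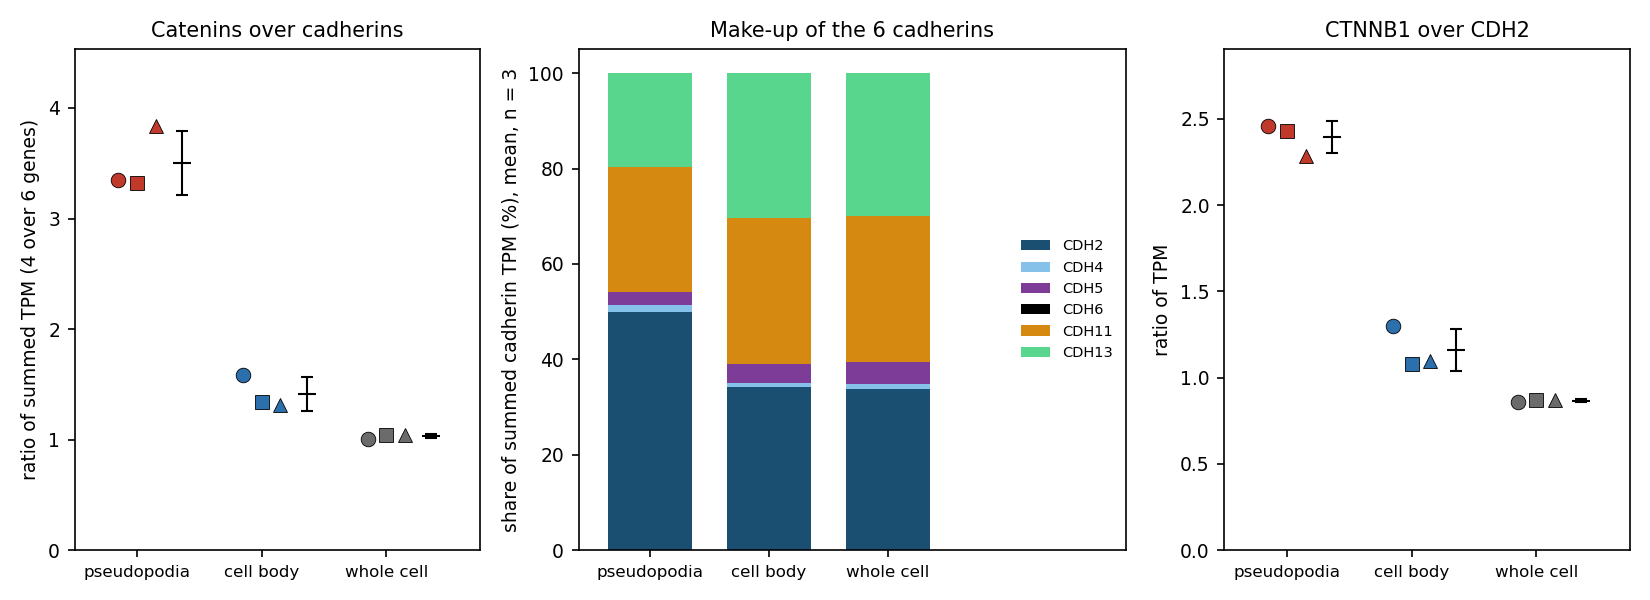
Ratio of the summed TPM of 4 catenins to that of 6 cadherins (left), mean share of each cadherin in the cadherin sum (middle) and ratio of CTNNB1 to CDH2 in TPM (right), in pseudopodia, cell bodies and whole cells; circles, squares and triangles are replicates 1, 2 and 3, and black bars are mean ± SD. The catenin to cadherin ratio lies at 3.32 to 3.84 in pseudopodia, above 1.32 to 1.59 in cell bodies and 1.01 to 1.04 in whole cells.

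The genes are of similar coding length, from 760 to 916 codons for the cadherins and 745 to 968 codons for the catenins, and differ more in the 3′ untranslated region, from 346 bases in CDH13 to 5838 in CDH6. CDH5, CDH11 and CDH13 all lie on chromosome 16, and CDH6 and CTNNA1 on chromosome 5. GC content of the transcript ran from 39.9% in CDH6 to 61.5% in JUP. The lengths and GC content are those of the annotated transcript taken for each gene, which may not be the form expressed here. For CDH13 that transcript had 2722 bases, against 11187 exonic bases over all its transcripts. Whether untranslated length was related to the fold changes was not tested. Overlap with other annotated genes was small apart from CTNND1. The largest shared exonic part was 9.0% of CDH6, with a pseudogene at 0 counts in each library, and next was 5.0% of CTNNA1, with the antisense gene LRRTM2 at 8 counts or fewer in each library. Whether the counting used strand is not given in the sources used here, so reads of a gene and its antisense partner cannot be told apart.

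The genes with the most similar profile over the 9 libraries were found for each member by the root mean square distance of centred log2 CPM. CDH2 was closest to DCAF16 (0.0662 log2 units), SORCS2 (0.0786) and VWA5A (0.0820). CDH11 was closest to YOD1, TWSG1 and ZDHHC20 (0.0806 to 0.108), and CDH13 to LTBP1, HFE and CPD (0.0675 to 0.0797). CDH5 was closest to the fibrillar collagen gene COL3A1 (0.0992), then FRRS1 and COL14A1. The log2 fold changes of these 12 genes in pseudopodia against cell bodies lay between -2.25 and -1.03, as the choice by distance fixes. CTNNA1 was closest to DNAJB6 (0.0337), VAPA and PPP3R1, CTNNB1 to GLYR1 (0.0423), SEPHS2 and GOLPH3, and CTNND1 to EIF4A2 (0.0495), MAT2B and MGME1. The sparser CDH4, CDH6 and JUP had no gene nearer than 0.194, 0.278 and 0.209 log2 units.

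Lists of genes around the 10 were chosen with earlier results known. Each count below stands beside shares of all genes tested of 18.6% called higher and 19.9% called lower in pseudopodia against cell bodies. Of 13 further classical cadherins, 8 passed the filter. In pseudopodia against cell bodies 4 were lower and the other 4 did not pass the test, with a median log2 fold change of -0.76. CDH18, a type II cadherin best known from brain, stood at 16.0 TPM in pseudopodia, 47.7 TPM in cell bodies and 48.2 TPM in whole cells, and was lower in pseudopodia than in cell bodies, with a log2 fold change of -1.30 ± 0.16 (SE) and an edgeR adjusted p of 9.55e-05. CDH10 was lower, at -1.86 ± 0.29. CDH9 had 2 counts in pseudopodia, 28 in cell bodies and 143 in whole cells, a pseudopodia to cell body ratio of 0.0693 with an exact 95% interval of 0.00800 to 0.275. Both pseudopodia counts of CDH9 were in the second library; the fitted log2 fold change was -3.65 with that library and -6.33 without it, a fitted value against libraries at 0 and no bound. On log2(TPM + 1) the CDH9 call was lost, at -0.19 with an adjusted p of 0.0605 in limma. The fourth was P-cadherin (CDH3), at -1.21, named after its value was seen. CDH1 (E-cadherin) had 68, 83 and 89 counts in pseudopodia, cell bodies and whole cells and did not pass the test, at -0.30. Nor did CDH24, at -0.19, or CDH8 and CDH15, which leaned higher at 1.27 and 0.56 (edgeR adjusted p = 0.177 and 0.119). CDH8 had 49, 19 and 20 counts in the same order. Its pseudopodia to cell body ratio was 2.50, with an exact 95% interval of 1.45 to 4.5 that covers counting error only.

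Among the other catenins and p120 relatives, 4 of 7 passed the filter, 3 were higher in pseudopodia than in cell bodies and CTNNAL1 did not pass the test. PKP4 (p0071), a p120 relative of junctions and of the cytoplasm, held 949 ± 119 CPM in pseudopodia, 65.0 ± 3.29 CPM in cell bodies and 94.4 ± 2.61 CPM in whole cells (SD, n = 3 each). Its log2 fold change against cell bodies was 3.87 ± 0.14 (SE), with an edgeR adjusted p of 1.71e-08. Per length it stood at 339 TPM in pseudopodia, above CTNNA1, and at 28.2 TPM in cell bodies, below CDH2. ARVCF, another p120 relative, and CTNNBIP1, an inhibitor of β-catenin binding to TCF, were higher by 0.68 and 0.67, and the ARVCF call was lost on TPM, with a value of 0.31 and an adjusted p of 0.0918 in limma.

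Desmosomal genes went both ways, with 2 higher and 2 lower of the 6 tested, against 18.6% and 19.9% of all genes. DSP (desmoplakin), the plaque protein that JUP joins to desmosomal cadherins, held 1346 ± 372 CPM in pseudopodia, 407 ± 245 CPM in cell bodies and 199.6 ± 9.68 CPM in whole cells (SD, n = 3 each). Its log2 fold change against cell bodies was 1.73 ± 0.38 (SE), and 2.34 without the second cell body library. PKP3 was higher by 0.66, with the call lost on TPM. The desmosomal cadherins DSG3, with 8 counts against 89, and DSG2, with 30 against 100, were lower, with log2 fold changes of -3.46 and -1.77.

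All 16 genes linking junctions to actin passed the filter, with 5 higher, 4 lower and 7 not called in pseudopodia against cell bodies. Over all genes 18.6% were called higher and 19.9% lower. VCL (vinculin), which binds α-catenin under tension, was lower, with a log2 fold change of -1.29 ± 0.17 (SE), and AFDN (afadin), the partner of nectins, was higher by 1.20 ± 0.19 (SE). ENAH (1.11) was also higher and LIMA1 and LPP lower (-0.69 each), but leaving out 1 library ended each of these 3 calls. Those libraries were the first or the third cell body library for ENAH. For LIMA1 they were the first or the third pseudopodia library and the first or the second cell body library, and for LPP the first pseudopodia library and each cell body library.

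Of the 4 nectins, which are immunoglobulin-type adhesion receptors beside cadherins, 2 were lower and NECTIN1 and NECTIN4 did not pass the test. NECTIN3 was at -1.77, a call lost without the first cell body library (adjusted p = 0.0555), and at -2.38 without the second pseudopodia library. NECTIN2 was at -0.85.

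The 7 genes that cut or glycosylate cadherins included 1 higher and 4 lower. ADAM10, which sheds the extracellular part of N-cadherin, held 43.7 ± 19.9 CPM in pseudopodia, 182 ± 13.2 CPM in cell bodies and 226 ± 8.74 CPM in whole cells (SD, n = 3 each). Its log2 fold change against cell bodies was -2.05 ± 0.30 (SE), with an edgeR adjusted p of 0.000533. PCSK5, a proprotein convertase, and NCSTN, a subunit of γ-secretase, were lower, at -1.94 and -1.93. FURIN, the convertase that removes cadherin propeptides, was higher by 0.60, a call lost on TPM (0.29, adjusted p = 0.104).

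Genes of β-catenin turnover showed 7 higher of 12 tested, against 18.6% of all genes, with a median log2 fold change of 0.55 and the other 5 not called. AXIN1, the scaffold of the destruction complex, was higher by 1.48 ± 0.14 (SE), with an edgeR adjusted p of 1.28e-05, and AXIN2 by 1.20 ± 0.16. AXIN2 was at means of 6.405, 2.78 and 12.7 CPM in pseudopodia, cell bodies and whole cells. Against whole cells it was lower in pseudopodia, at -0.985 with an edgeR adjusted p of 0.000274. In that comparison 7 of the 12 genes were higher and 2, AXIN2 and APC, were lower, against 27.9% and 33.1% of all genes. APC was higher by 1.63, but its libraries varied, at 10.7 ± 7.56 CPM in pseudopodia, 3.47 ± 2.12 CPM in cell bodies and 37.8 ± 1.42 CPM in whole cells (SD, n = 3 each). The APC call was lost without the second or the third pseudopodia library or the first or the third cell body library, and the value was 0.93 without the second pseudopodia library and 2.25 without the second cell body library. Of the nuclear partners of β-catenin, 3 of 7 tested were higher and the other 4 were not called, with TCF7L1 at 1.14 ± 0.15 (SE). TCF7, at 0.43, and BCL9L, at 0.61, each lost the call when 1 library was left out, the first or the third cell body library for both and also the first or the third pseudopodia library for BCL9L.

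Of 11 transcriptional targets of canonical Wnt signalling, 5 passed the filter, and all 5 were called in pseudopodia against cell bodies, 2 of them higher and 3 lower. CCND1 (cyclin D1) was higher by 1.88 ± 0.18 (SE) and AXIN2 by 1.20, although AXIN2 was lower in pseudopodia than in whole cells. DKK1, a secreted Wnt inhibitor, was lower, at -2.01 ± 0.21 (SE), as were MYC at -0.88 ± 0.14 and ZNRF3, which removes Wnt receptors, at -0.79 ± 0.19. These 5 genes did not share 1 direction.

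**Figure D4:**
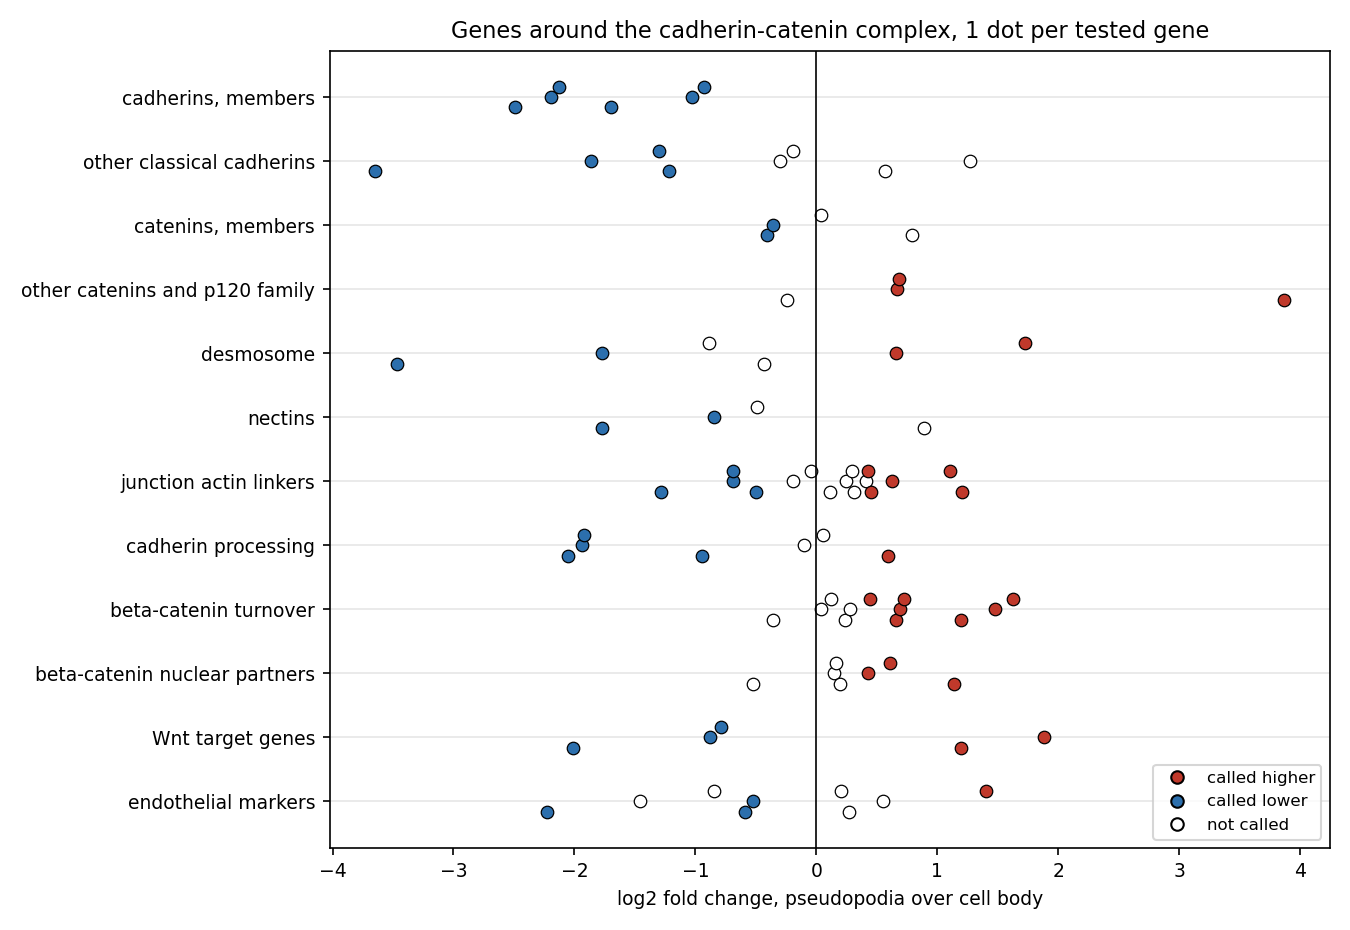
Log2 fold change in pseudopodia over cell bodies for each tested gene of the cadherins, catenins and 10 lists around them, 1 dot per gene; red and blue mark genes called higher and lower at an adjusted p below 0.05, and open dots were not called. The 6 cadherins and 4 of the 8 other classical cadherins are blue, whereas PKP4 at 3.87 is the farthest red dot and the turnover and nuclear partner lists hold red and open dots only.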

How the data were processed

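RNA-seq of 9 hTERT-MSC libraries, 3 each of pseudopodia, cell body and whole cell, was analysed from 1 table of gene counts, deposited by the authors and made with featureCounts per the labels, and from TPM values per library deposited by the authors. Per the submitters' processing notes, GRCh38 and DESeq2 were used; the aligner, annotation release and strand setting were not given in the sources used here. Counts and TPM differed only by 1 length per gene and 1 constant per library, with a largest log2 deviation of 3.86e-14 over 19244 genes. Symbols came from the TPM files. 1 blank line of the count table was left out.

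All 9 libraries entered 1 fit in edgeR 4.0.16 (R 4.3.3), with TMM factors, filterByExpr with a minimum count of 10 and robust quasi-likelihood tests between groups. P-values were Benjamini-Hochberg adjusted over 19426 genes, and a gene was called at an adjusted p below 0.05. The fit was checked on simulated data in which each gene had the same spread in all 3 groups. That check does not cover the unequal spread of the groups found here. Alternatives used other scaling factors, filters, DESeq2 1.42.0, limma 3.58.1 (voom, and log2(TPM + 1) or log2(TPM + 0.1)), the 6 libraries compared, a replicate block, and each library left out in turn. The voom fit used sample weights of 4.74, 0.321 and 0.116 for pseudopodia libraries 1, 2 and 3, so its pseudopodia values rested mainly on the first. A fold change on log2(TPM + pseudocount) understates the change of low genes. TPM values carry no correction for library composition: on log2(TPM + 1) the median log2 fold change of all genes was -0.17 in pseudopodia against cell bodies and -0.15 in cell bodies against whole cells, against -0.05 and -0.06 for scaled counts. Replicates of a group differed beyond counting noise, with a chi-square per gene of 4.68 or more, so none were merged. Intervals for low counts are exact, at 95%, and cover counting error only.

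Positions are from GENCODE 29 on GRCh38. The 10 genes and 16 gene lists were chosen with earlier results of these data known. Named genes are all 10 members, and of each list up to 3 called genes with the largest positive and 3 with the largest negative log2 fold change in pseudopodia against cell bodies. 1 gene that this rule names is not reported here.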

Additional observations from a re-analysis of the deposited data

How the results depend on the processing

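Under 16 alternatives, CDH2, CDH5, CDH11 and CDH13 stayed lower and called in pseudopodia against cell bodies and against whole cells. The 5 CPM filter removed CDH4, CDH6 and JUP, so no value was had for them. Low counts limit the precision of CDH6 and JUP. The cause of the changes below was not tested, apart from settings that leave fewer genes or libraries.

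In pseudopodia against cell bodies, genes called lower were 5994 with limma-voom, 5944 on log2(TPM + 1) and 6137 on log2(TPM + 0.1), and genes called higher 2320 and 2306 on the 2 TPM scales. Members called lower were 5 with only the 6 libraries compared, and 4 to 7 without 1 library. In pseudopodia against whole cells, genes called lower were 3771 with the 5 CPM filter and 9686 on log2(TPM + 1), and genes called higher 3229 and 3203 on the 2 TPM scales. Members called higher were 2 with limma-voom (CTNNA1 and CTNNB1) and 0 on both TPM scales. In cell bodies against whole cells, genes called lower were 2046 with the 5 CPM filter and 6269 with limma-voom, and genes called higher 5730 with limma-voom, 5287 with only the 6 libraries compared, and 2275 to 3044 without 1 library. Members called higher were 1 with upper-quartile factors, 0 on both TPM scales and 0 to 2 without 1 library, and members called lower were 2 with limma-voom, 1 on log2(TPM + 1) and 1 with only the 6 libraries compared.

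Some log2 fold changes turned their direction, among them the called value of CTNNB1 in pseudopodia against whole cells. In pseudopodia against cell bodies CTNNB1 was at -0.009 with the 5 CPM filter, -0.24 and -0.25 on the 2 TPM scales, -0.003 with only the 6 libraries compared, and -0.022 to 0.105 without 1 library. In pseudopodia against whole cells CTNNA1 was at -0.001 with upper-quartile factors, -0.075 with the 5 CPM filter and -0.40 on both TPM scales, and CTNNB1 at -0.049 and -0.050 on them. In cell bodies against whole cells, CDH2 was at 0.00 with DESeq2 size factors in edgeR and in DESeq2, 0.043 with no filter, 0.055 with limma-voom, and -0.102 to 0.103 without 1 library. CDH4 was at 0.039 with no filter, 0.043 with limma-voom, and -0.110 to 0.086 without 1 library. CDH11 was at 0.015 with no filter and -0.109 to 0.025 without 1 library. CDH13 was at 0.016 with DESeq2 size factors and in DESeq2, 0.058 with no filter, 0.083 with limma-voom, 0.006 with only the 6 libraries compared, and -0.100 to 0.159 without 1 library. JUP was at -0.562 to 0.102 without 1 library.

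Replicate numbers were not taken to pair the libraries. The correlations of same-numbered deviations were -0.0807 to 0.0901, and those of different-numbered ones -0.176 to 0.144. With 3 libraries a group these values cannot show whether same-numbered libraries shared a membrane or a culture. With the replicate block, 3267 genes were higher and 3653 lower in pseudopodia against cell bodies, and 6 members were called lower, without CTNNA1 (adjusted p = 0.0654) and CTNND1 (0.0782).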
